A study of Mus musculus with 8 samples.

Results

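Distal p300 regions were examined that were called both without and with bexarotene, lay more than 50 kb from the nearest protein-coding transcription start site (TSS) and overlapped no myogenin interval. Of the 9154 intervals in the bexarotene p300 list, 7298 overlapped a control p300 interval by at least 1 bp (79.7%), 3005 of these had their centre more than 50 kb from a TSS, and 2340 of those overlapped no interval of either myogenin list. Leaving out 33 on chromosome 8 between 80 and 100 Mb gave 2307 regions, out of 43759 intervals in the 4 deposited lists. Over all bexarotene p300 intervals, 37.9% lay more than 50 kb from a TSS. The regions were chosen by the positions in the p300 and myogenin lists, so neither their presence in both p300 lists nor the absence of myogenin is a finding. Distance was measured to starts of protein-coding genes and not to gene bodies: 698 of the 2307 centres (30.3%, 95% Wilson interval 28.4 to 32.2) lay inside a protein-coding gene, so the regions are called distal p300 regions here and not regions outside genes.

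The data came from C2C12 cells, an immortalised mouse myoblast line from the C3H strain that fuses into myotubes when serum is withdrawn. Both groups were switched to low-serum differentiation medium for 24 h. The control group (Ctl) received no bexarotene, and the treated group (Bex) received 50 nM bexarotene, an agonist of the retinoid X receptor (RXR), from the start of differentiation. Chromatin immunoprecipitation followed by sequencing (ChIP-seq) was performed for p300 and for myogenin on 1 library per group, and the lists hold 22051 (Ctl) and 9154 (Bex) p300 intervals and 5912 (Ctl) and 6642 (Bex) myogenin intervals. They hold positions without tag counts, so the depth of the libraries is not known from them, and they hold no expression values against which the cell type could be checked. With 1 library per group, treatment and library cannot be told apart and no test between the groups was made. Every interval given below covers counting error over regions and not variation between cultures.

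p300 is a histone acetyltransferase that is recruited to enhancers and promoters by DNA-bound transcription factors and acetylates histone tails there. Its distal binding sites are widely used to locate candidate enhancers, and an enhancer can act on a start site far along the chromosome. Several families of factors are known to bring p300 to enhancers in myoblasts and other mesenchymal cells. AP-1 proteins (dimers of Fos and Jun) bind TGACTCA or TGAGTCA, Runx proteins bind TGTGGT, Tead proteins, the DNA-binding partners of Yap and Taz, bind GGAATG, and the basic helix-loop-helix factors MyoD and myogenin bind E-boxes such as CAGCTG. Nuclear receptors that pair with RXR bind repeats of AGGTCA.

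The sequences show what these regions were made of. Each is the 200 bp window around the centre of a bexarotene interval, read from the mm9 genome, with the letters of AP-1, Runx, Tead, CAGCTG and CACCTG (or CAGGTG) matches on either strand in capitals. The first 5 come from regions with long control intervals. Each had the longest in its kind once windows already shown and a chromosome whose sequence is not printed here had been left out, so the Ube2v2 window, which also holds CAGCTG, was shown for Tead only. The last 2 kinds were added after the motif combinations had been seen.
AP-1 motif alone, chr6:31038691-31038890, plus strand: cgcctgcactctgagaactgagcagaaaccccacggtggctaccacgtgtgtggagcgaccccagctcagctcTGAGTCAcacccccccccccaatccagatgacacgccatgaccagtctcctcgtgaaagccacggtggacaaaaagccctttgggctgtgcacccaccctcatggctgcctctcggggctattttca
AP-1 with Runx, chr8:18449118-18449317, plus strand: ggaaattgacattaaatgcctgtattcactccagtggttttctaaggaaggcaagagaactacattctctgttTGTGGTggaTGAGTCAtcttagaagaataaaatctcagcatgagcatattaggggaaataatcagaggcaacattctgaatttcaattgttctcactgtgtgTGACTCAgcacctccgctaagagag
AP-1 with Tead, chr16:15294515-15294714, plus strand: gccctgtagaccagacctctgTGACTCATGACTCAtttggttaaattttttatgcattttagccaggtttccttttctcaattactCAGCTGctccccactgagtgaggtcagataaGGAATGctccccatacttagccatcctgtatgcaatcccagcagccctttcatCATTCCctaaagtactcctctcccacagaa
AP-1 with CAGCTG, chr9:34087551-34087750, plus strand: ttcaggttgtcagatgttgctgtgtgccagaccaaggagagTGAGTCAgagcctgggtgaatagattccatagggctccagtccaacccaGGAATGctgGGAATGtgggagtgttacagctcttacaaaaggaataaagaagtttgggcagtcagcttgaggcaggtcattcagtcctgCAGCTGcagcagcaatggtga
none of the searched motifs, chr1:71959657-71959856, plus strand: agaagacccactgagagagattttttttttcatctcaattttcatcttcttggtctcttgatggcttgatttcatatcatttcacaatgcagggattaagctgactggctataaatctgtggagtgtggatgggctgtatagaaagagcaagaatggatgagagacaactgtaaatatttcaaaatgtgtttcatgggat
AP-1, Runx, Tead and CAGCTG together, chr15:96378866-96379065, plus strand: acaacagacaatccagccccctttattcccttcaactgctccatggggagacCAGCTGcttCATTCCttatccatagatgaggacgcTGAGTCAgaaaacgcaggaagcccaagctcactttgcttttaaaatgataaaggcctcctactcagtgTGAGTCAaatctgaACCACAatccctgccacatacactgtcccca
Runx, Tead and CAGCTG without AP-1, chr8:58868187-58868386, plus strand: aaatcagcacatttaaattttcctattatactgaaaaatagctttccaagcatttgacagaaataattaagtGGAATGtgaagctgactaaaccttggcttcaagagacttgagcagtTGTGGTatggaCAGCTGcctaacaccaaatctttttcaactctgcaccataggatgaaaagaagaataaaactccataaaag
The window with an AP-1 motif alone was centred on the longest bexarotene interval of all 2307 regions (1026 bp, control 1195 bp), which lay between genes, 129.6 kb from the nearest protein-coding TSS, that of AB041803. The nearest TSSs of the windows with AP-1 and Runx, AP-1 and CAGCTG, all 4 motifs, and the 3 motifs without AP-1 were those of Mcph1 (145.9 kb), Kirrel3 (206.1 kb), Scaf11 (87.7 kb) and Hpgd (94.9 kb). The Kirrel3 window also held 2 Tead matches, which lay nearer its centre than its AP-1 and CAGCTG matches. In the AP-1 and Tead window the AP-1 letters stood side by side in 2 copies, with a CAGCTG and a Tead match nearer the centre and a second Tead match about as far out as the AP-1 copies. Its bexarotene interval was 158 bp long against 1360 bp in control, and it lay 299.95 kb from the TSS of Ube2v2. The window with none of the 18 searched motifs was centred on a bexarotene interval of 239 bp near Gm5528, inside a control interval of 1380 bp whose own centre lay outside the window.

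The study had already reported motifs of bZIP proteins (which include AP-1), Runx, Tead and E-box factors at p300 enhancers in these libraries. An excess of these motifs over the flanks is therefore a description and not independent support. AP-1 letters had the highest share relative to the flanks. They occurred in 791 of 2307 windows (34.3%, 95% Wilson interval 32.4 to 36.2) and in 144 of 4461 flanking windows 2 kb away (3.23%, 2.75 to 3.79), a 10.6-fold difference. Runx letters were found in more windows (860, 37.3%) but were also common in the flanks (14.2%), so the ratio was 2.63. Tead letters were present in 509 windows (22.1%) against 11.4% of flanks, a ratio of 1.94. CAGCTG was present in 533 windows (23.1%) against 8.05% of flanks, a ratio of 2.87, although no region overlapped a myogenin interval. The other E-box counted, CACCTG or CAGGTG, was present in fewer windows (156, 6.76%) than flanks (11.2%), a ratio of 0.605, but the direction turned against the same letters in reverse order in the same windows (a difference of 1.30 points, -0.08 to 2.69). The order of the ratios holds for the flanks only: the letters in reverse order were present in 6.37% of the windows for AP-1, 12.4% for Runx, 4.81% for Tead and 0.303% for CAGCTG, whose reverse contains a CpG. Over all 9154 bexarotene p300 intervals, AP-1 was present in 27.1%, Runx in 32.7%, Tead in 18.9% and CAGCTG in 32.1%. These include the intervals that overlap myogenin, which the choice of the distal regions removed, so the CAGCTG share is not comparable.

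**Figure D1:**
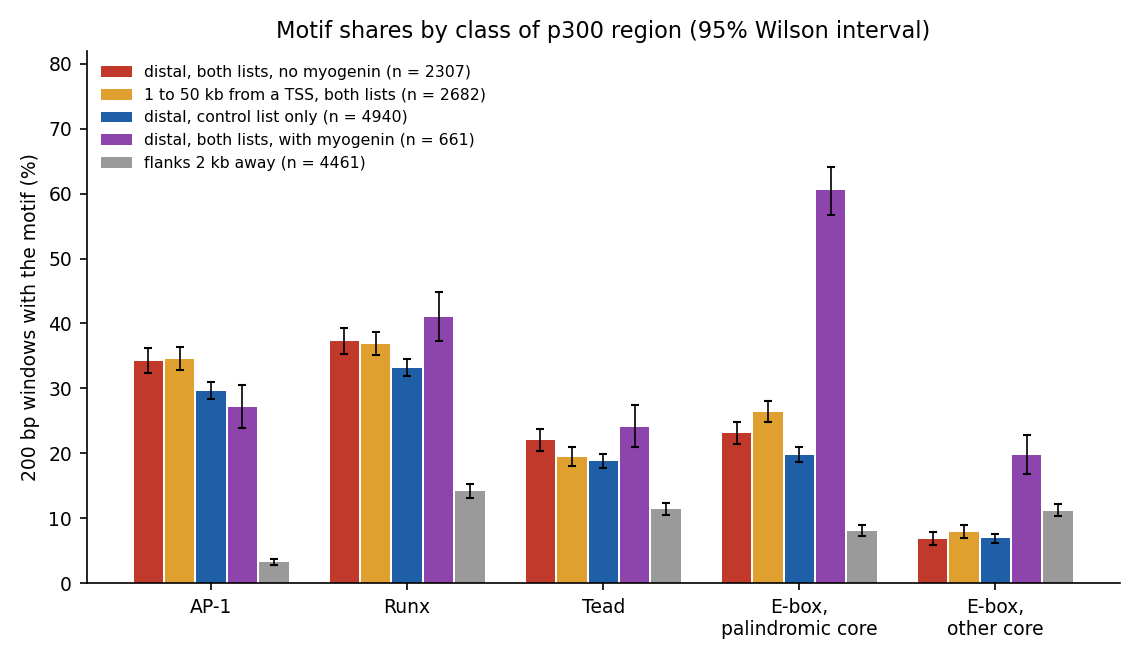
Share of 200 bp windows (%, vertical axis) that hold each motif (horizontal axis) in the distal p300 regions without myogenin, in 3 other classes of p300 interval and in flanking windows 2 kb away, with bars for shares and whiskers for 95% Wilson intervals. The AP-1 share was 34.3% in the distal regions and 3.23% in the flanks, and the palindromic E-box (CAGCTG) reached 60.5% where myogenin was bound.

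All 18 motifs were searched on both strands. The difference from the flanks had a 95% Newcombe interval that excluded 0 for 11 of them. For the RXR question, the single receptor site AGGTCA was present in 11.8% of windows and 12.51% of flanks. Direct repeats of these letters with any 1 base or any 5 bases between the copies, searched without mismatch, were found in 0 of 2307 windows, with a 95% Wilson interval up to 0.166%. In the flanks the repeats with 1 and 5 bases between were found in 4 and 1 of 4461 windows. Over all bexarotene p300 intervals they were found in 3 and 1 of 9154. These exact letters are rare anywhere, and the count says only that they were not in the windows. The homeodomain letters TAATTA were less common in the regions (4.42%) than in the flanks (7.24%), as was the Mef2 consensus (2.69% against 4.60%). GGGCGG, which Sp proteins bind, was found in 2.90% of windows and 1.59% of flanks. The median GC content was 44.5% in the regions and 42.5% in the flanks, and the part of this in these shares was not tested.

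The sites of the concentrated motifs lay at the middle of the intervals. AP-1 letters occurred at 0.300 sites per 100 bp within 20 bp of the centre and at 0.0204 sites per 100 bp between 400 and 600 bp away. Runx density fell from 0.273 to 0.0859 sites per 100 bp over the same distance, Tead density from 0.147 to 0.0560 and CAGCTG density from 0.169 to 0.0422. CACCTG or CAGGTG went the other way, from 0.0347 at the centre to 0.0604 in the outer bin. Within the windows, the median site was 32.5 bp from the centre for AP-1 (95% order-statistic interval 29.5 to 34.5 bp), 37 bp for Runx and 39 bp for Tead and for CAGCTG.

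**Figure D2:**
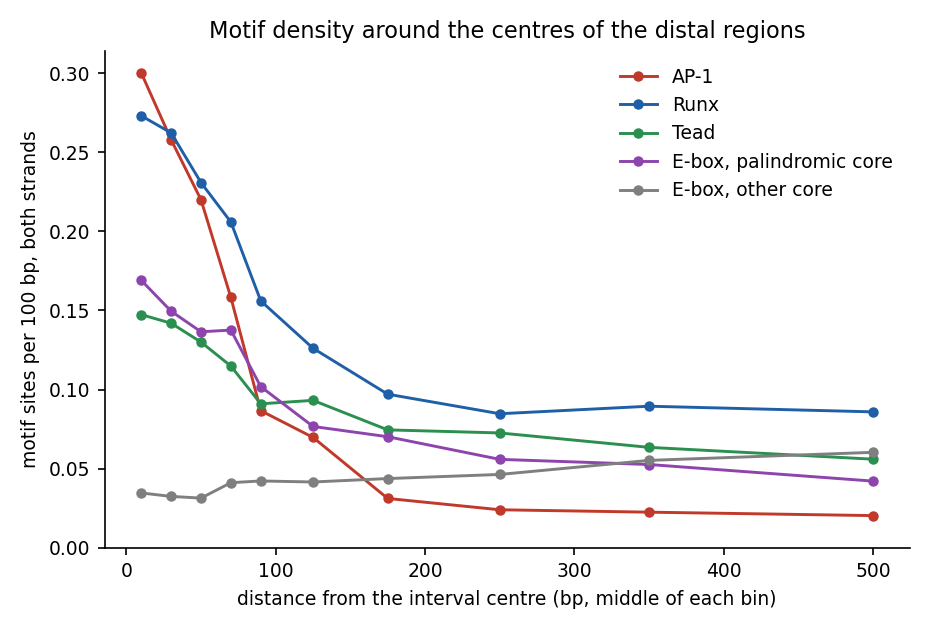
Motif sites per 100 bp on both strands (vertical axis) against the distance from the centre of the 2307 distal intervals in bp (horizontal axis, each point at the middle of its bin). AP-1, Runx, Tead and the palindromic E-box were densest at the centre, and the other E-box core was less dense within 60 bp of the centre than in the outer bins.

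Most regions held at least 1 of the AP-1, Runx, Tead and CAGCTG motifs. None of these 4 was present in 503 windows (21.8%), exactly 1 in 1051 (45.6%), 2 in 624 (27.05%), 3 in 122 (5.29%) and all 4 in 7. In the flanks 68.0% of windows held none. AP-1 was less often present beside each of the other 3: it occurred in 29.9% of windows with Runx and 36.9% of those without (difference -7.02 percentage points, 95% Newcombe interval -10.9 to -3.04), in 29.5% with Tead and 35.7% without (-6.18, -10.6 to -1.53), and in 28.3% with CAGCTG and 36.1% without (-7.75, -12.0 to -3.21). In the flanks the same 3 differences were 0.66, 1.25 and 0.43 points with intervals that included 0. Between Runx, Tead and CAGCTG themselves the intervals included 0 (Runx with and without Tead -1.95, -6.59 to 2.84). More than 1 AP-1 site was present in 125 of the 791 windows with the motif (15.8%), against 4 of 144 flanking windows.

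Compared with distal p300 intervals called in control only (4940 without myogenin), the distal regions kept under bexarotene carried more of each of the same 4 motifs. AP-1 was present in 34.3% against 29.7% (difference 4.63 points, 95% Newcombe interval 2.33 to 6.96). Runx differed by 4.12 points (1.76 to 6.50), Tead by 3.28 (1.29 to 5.32) and CAGCTG by 3.31 (1.28 to 5.38), which beyond 100 kb became 2.29 (-0.32 to 4.98). These were the only 4 of the 18 motifs whose interval excluded 0 in that comparison, and CACCTG or CAGGTG differed by -0.14 points (-1.35 to 1.15). The control-only windows were centred on control intervals, and 28.2% of them held none of the 4 motifs against 21.8% of the distal regions. The 2 classes had the same median GC content (44.5%). The control-only intervals were shorter (median 205 bp, 40.8% at the smallest length) than the control intervals of the distal regions (median 361 bp, 7.11%). Intervals at the smallest length of their list were then left out, by bexarotene length for the distal regions (1360 left). The differences became 3.79 points for AP-1 (0.76 to 6.86), 3.17 for Runx (0.09 to 6.29), 3.32 for Tead (0.71 to 6.02) and 5.20 for CAGCTG (2.57 to 7.91). The classes were not otherwise matched for length, and the part of length in the motif shares was not tested further.

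Shared p300 intervals 1 to 50 kb from a TSS without myogenin (2682) held AP-1 in 34.6% and Runx in 36.9% of windows, and the differences of the distal regions from these were -0.28 points (-2.92 to 2.37) and 0.40 points (-2.28 to 3.09). Tead was 2.64 points more common in the distal regions (0.38 to 4.90), or 2.03 points (-0.27 to 4.33) when windows were centred on the control intervals. CAGCTG was 3.29 points less common (-5.68 to -0.89) and GGGCGG 2.50 points less common (-3.61 to -1.40). The letters TTCNNNGAA, which Stat proteins bind, were 1.95 points more common (0.48 to 3.45), and the interval of 5 of the 18 differences excluded 0. The nearer class had the higher median GC content (46.5%). Against the 661 distal shared intervals that overlapped myogenin, AP-1 was 7.21 points more common (3.21 to 11.001). Runx differed by -3.72 points (-7.98 to 0.47) and Tead by -1.99 (-5.77 to 1.56). Searched in whole intervals, these became -7.97 (-12.3 to -3.70) and -6.85 (-10.9 to -3.01). The whole intervals with myogenin were longer (median 268 bp against 203 bp), so more sequence was searched in them. CAGCTG was present in 60.5% of the intervals with myogenin and 23.1% of the distal regions without it. That difference follows the myogenin lists used to choose both classes. Over the 3 classes and the flanks 72 differences were computed, and their intervals are not adjusted for that number.

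Interval length is the only measure of size in a list of positions. The control intervals at these regions had a median length of 361 bp (95% order-statistic interval 352 to 372, quartiles 265 and 494) and a maximum of 1543 bp. The bexarotene intervals had a median of 203 bp (201 to 206, quartiles 158 and 267) and a maximum of 1026 bp. The smallest interval of the bexarotene list, 158 bp, was the length of 947 of them (41.0%), while the smallest of the control list, 159 bp, was that of 164 control intervals (7.11%). The interval was shorter in bexarotene at 2135 regions (92.5%), against 90.2% of all 7298 shared p300 intervals, longer at 167 (7.24%, against 9.66%) and of equal length at 5. It was at least 2-fold shorter at 722 (31.3%, against 26.4%). Shorter intervals were therefore the rule among all shared p300 intervals, which include the distal regions. The distal shares had 95% Wilson intervals of 91.4 to 93.5% (shorter), 6.25 to 8.37% (longer) and 29.4 to 33.2% (at least 2-fold shorter). Each excluded the share of all shared intervals, but control length was not matched. The same 2 libraries chose the regions. With 1 library per group and unknown depth, a difference between the libraries and less p300 cannot be told apart. In bulk chromatin, p300 in fewer cells and less p300 per cell cannot be told apart either.

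**Figure D3:**
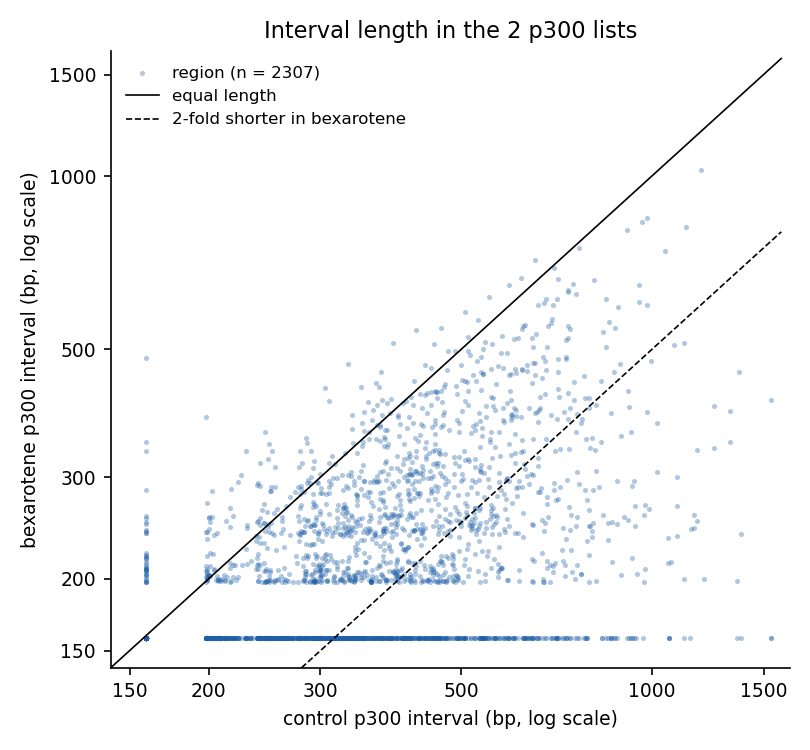
Length of the bexarotene p300 interval (bp, vertical log axis) against that of the overlapping control interval (bp, horizontal log axis) at the 2307 distal regions, 1 point per region, with a solid line at equal length and a dashed line at 2-fold shorter. Most points (2135) lie under the solid line, and 947 lie on the floor of 158 bp.

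The median of the length ratio, bexarotene over control, was 0.627 (0.613 to 0.639) at the distal regions, 0.640 (0.629 to 0.650) at shared intervals nearer to a TSS and 0.707 (0.681 to 0.736) at distal shared intervals with myogenin. Regions at least 2-fold shorter were 8.30 points more common than at the distal intervals with myogenin (4.46 to 11.9). Regions longer in bexarotene were 5.47 points less common (-8.40 to -2.88). Against the shared intervals nearer to a TSS, the same differences were 3.26 points (0.72 to 5.80) and -1.11 points (-2.60 to 0.39). Median control lengths were 361 bp at the distal regions, 330 bp at the nearer intervals and 415 bp at those with myogenin. The classes were not matched for control length, which limits how far an interval can shrink. Split by control length, the ratio was 0.837 in the shortest quartile and 0.605, 0.540 and 0.430 in the next 3. Control length is the denominator of the ratio, so some fall over the quartiles comes with the split and is not a finding. No interval can be shorter than the smallest of its list, so the shortest control intervals had the least room to shrink. The bexarotene interval lay wholly inside the control interval at 1496 regions (64.8%), and the median distance between the 2 centres was 42 bp. At 36 control intervals 2 or more bexarotene intervals fell on the same one. An example was the longest control interval, 1543 bp long and 631 to 632 kb upstream of Zfp608, which encodes a zinc finger protein: it held bexarotene intervals of 408, 158 and 158 bp. The next longest lay near Gm5528 (1380 bp, with 239 and 158 bp in bexarotene), upstream of Bmper, an extracellular regulator of BMP signalling (1371 bp, with 456 bp), near Ube2v2 (1360 bp, with 198 and 158 bp) and inside 2010111I01Rik (1326 bp, with 391 and 345 bp).

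The regions that went the other way were few, and 104 of the 167 had a control interval of the shortest quartile (up to 265 bp). An interval in Slc24a3 whose nearest TSS was that of Rin2 measured 159 bp in control and 484 bp in bexarotene, one 55.5 kb upstream of Rap2b 159 and 346 bp, and one in St7 with Wnt2 as its nearest TSS 159 and 333 bp. These 3 and the 198 and 381 bp near Phlda1 were picked for their length. The 167 lengthened regions held AP-1 in 35.3% of windows, against 34.2% of the others (difference 1.12 points, 95% Newcombe interval -6.02 to 8.89), and for none of the 5 motifs shown in capitals did the interval exclude 0.

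Motif content varied among the regions with the length of the control interval. AP-1 was present in 36.4% of windows in the quartile with the shortest control intervals (159 to 265 bp), 35.7% and 37.7% in the middle quartiles and 27.4% in that with the longest (494 to 1543 bp), a difference of -9.01 points between the outer quartiles (-14.3 to -3.64). Windows with none of the 5 motifs made up 18.4% of the first and 24.4% of the last (6.07 points, 1.33 to 10.8). The window was the same 200 bp in every quartile and covered a smaller part of the longer intervals. With distance from the TSS the AP-1 share hardly moved (34.7% at 50 to 100 kb and 34.5% over 200 kb, -0.27 points, -5.02 to 4.56), whereas CAGCTG was present in 25.1% of windows at 50 to 100 kb and 19.2% of those over 200 kb (-5.89 points, -9.95 to -1.68). The length ratio was 0.656 (0.641 to 0.691) at regions with CAGCTG and 0.613 (0.596 to 0.627) at those without. Median control lengths were 348 bp (333 to 369) with CAGCTG and 365.5 bp (354 to 375) without. Median bexarotene lengths were 206 bp (201 to 213) with it and 202 bp (200 to 205) without. Control length is the denominator of the ratio and was not matched, so its part in this difference was not tested. For the other motifs shown in capitals the intervals of the ratio with and without the motif overlapped. The ratios were 0.645 with and 0.619 without AP-1, 0.630 and 0.623 for Runx, and 0.657 and 0.625 for CACCTG or CAGGTG. For Tead the ratio was lower with the motif (0.598 against 0.632).

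The part of the genome more than 50 kb from a protein-coding TSS measured 1327 Mb of 2539 Mb (52.3%), and it held 1.74 of these regions per Mb. Chromosome 13 held 226 of them, 3.56 per Mb, followed by chromosome 15 with 2.66 and chromosomes 17 and 9 with 2.22 each. The lowest densities on the numbered chromosomes were 1.15 per Mb on chromosome 5 and 1.21 on chromosome 7, and the X chromosome held 26 regions, 0.271 per Mb. The distal intervals called in control only had their extremes on the same chromosomes, 6.67 per Mb on chromosome 13 and 0.824 per Mb on X.

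**Figure D4:**
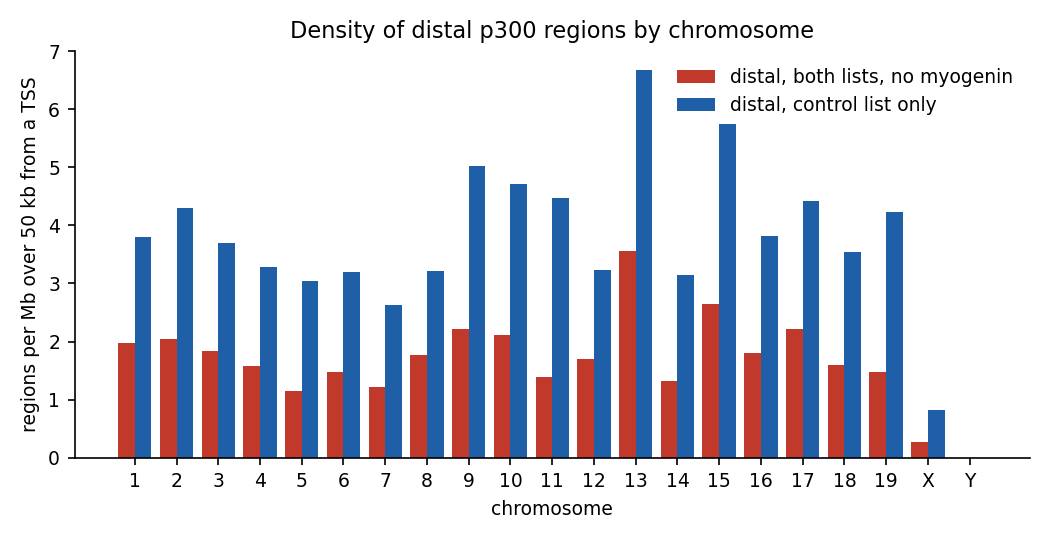
Regions per Mb of genome more than 50 kb from a protein-coding TSS (vertical axis) by chromosome (horizontal axis), for the distal regions in both lists and for distal intervals in the control list only, both without myogenin. Chromosome 13 had the highest density in both classes (3.56 and 6.67 per Mb) and X the lowest of those with any region (0.271 and 0.824).

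The median distance to the nearest protein-coding TSS was 118 kb (95% order-statistic interval 114 to 123). The regions comprised 973 at 50 to 100 kb (42.2%), 719 at 100 to 200 kb (31.2%), 509 at 200 to 500 kb (22.1%), 94 at 500 to 1000 kb (4.07%) and 12 farther away. The 3 farthest were all on chromosome 10, at 1445 kb from Nmbr, 1281 kb from Cited2 and 1255.5 kb from Grik2. Just inside the distance limit lay regions at 50.078, 50.093 and 50.107 kb from A930005H10Rik, 6430527G18Rik and Kitl, and just outside it intervals at 49.950, 49.949 and 49.867 kb from Jarid2, Lphn3 and 4930449E01Rik. By the GENCODE annotation, 684 centres lay in an intron of a protein-coding gene (29.6%), 14 in an exon and 1609 between protein-coding genes (69.7%). Protein-coding genes covered 24.99% of the genome at that distance. A long noncoding gene held 88 centres (3.81%), and 35 lay within 1 kb of a noncoding transcript start. A myogenin interval lay within 1 kb of 118 regions (5.11%) and within 10 kb of 411 (17.8%).

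When regions were chained while their centres lay within 50 kb of the next, 1133 were alone (49.1%) and 1174 fell into 459 groups, 151 of them with at least 3 regions and 25 with at least 5. At 0.25 of that distance 1685 were alone (73.0%), 622 were in groups and the largest group had 5. The largest group had 11 regions between 80577611 and 80713987 on chromosome 12, all inside Rad51l1. Their control intervals measured 244 to 730 bp and their bexarotene intervals 158 to 280 bp, with 6 of the 11 at 158 bp. Groups of 7 lay at 173177337 to 173277859 on chromosome 2 near Pmepa1, an inhibitor of TGF-beta signalling, at 28695949 to 28843112 on chromosome 13 near Sox4, and at 86035094 to 86210559 on chromosome 16 near Adamts5, an aggrecan-cleaving protease. Of 7 groups of 6, the 4 with the shortest span lay near Dapk1 (chr13:60511111-60552400), Slc5a7 (chr17:54279962-54328712), Cited2 (chr10:16709253-16763051) and Ext1 (chr15:52890176-52970883), and the others near Tgfb2, near Thbs1, and between Rasgrp1 and Thbs1. The stretch of the Sox4 group also held 7 myogenin intervals that overlapped none of its 7 regions, and that of the Rad51l1 group held 4. AP-1 was present in 31.4% of the regions in groups and 37.2% of those alone (-5.82 points, -9.67 to -1.94). The regions in groups also had longer control intervals (median 388 bp against 340 bp), and the part of length in this difference was not tested.

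The nearest protein-coding genes numbered 1230, which is 5.53% of the 22238 annotated, and 705 of them were nearest to 1 region only. The nearest gene is a description of position, and no contact between a region and a gene was measured. Sox4, an HMG-box transcription factor, had most by count, 12 regions at 57.3 to 347 kb. Their control intervals measured 159 to 724 bp and their bexarotene intervals 158 to 363 bp, and CAGCTG was found in 6 of the 12 windows, Runx and Tead in 4 each and AP-1 in 2. Rad51l1, Rasgrp1, a Ras exchange factor, and Zfp608 followed with 11 each, and Cited2, a transcriptional co-regulator that binds p300 itself, and Tbl1xr1, a subunit of the NCoR corepressor complex, with 10 each. All 10 Cited2 regions were upstream of the gene, from 548 to 1281 kb away. The order differed per 100 kb of the distant genome nearest to each gene. By that measure Rasgrp1 had 3.29 regions, Rad51l1 3.15, Sox4 2.12, Zfp608 0.994, Cited2 0.699 and Tbl1xr1 0.531.

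Bmper, Cd180, Ext1, Klf6, Myc, Nrp2 and Thbs1 were each nearest to 9 regions. Of those of Myc, the growth-promoting transcription factor, 2 were upstream and 7 downstream, at 299.9 to 811.5 kb. The longest of these measured 1125 bp in control and 512 bp in bexarotene (chr15:62118645-62119156), and another 626 and 550 bp (chr15:62159830-62160379). The 9 regions of Nrp2, a receptor for semaphorins and VEGF, all lay upstream of it inside the neighbouring gene Pard3b. Runx letters were present in 8 of these 9 windows and Tead letters in 0. At Klf6, a Kruppel-like transcription factor, Runx and Tead letters were present in 6 of 9 windows each, and 1 of its regions, 332 kb downstream, measured 1048 bp in control and 742 bp in bexarotene. Thbs1 (thrombospondin 1, a matrix glycoprotein) had regions at 52.7 to 363 kb, of which 1 held AP-1 and 6 held Runx letters.

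Transcription factors of mesenchyme and genes of the extracellular matrix were nearest to more regions than the share of the distant genome that lies nearest to them. Of the 52 listed mesenchymal transcription factors, 28 were nearest to 79 regions, which is 3.42% of them (95% Wilson interval 2.76 to 4.25), whereas these genes were nearest to 1.55% of the genome beyond 50 kb. Besides Sox4 and Klf6, these included Nr2f2 with 6 regions, Nfib, Foxp1, Osr1 and Zeb2 with 4 each, and Sox9, Tbx18 and Sox5 with 3 each. Hmga2 (54.3 kb), Msx1 (55.3 kb), Twist2 (59.7 kb) and Prrx1 (67.3 kb) were those with fewer regions that had the closest one. Of 30 matrix genes, 14 were nearest to 51 regions (2.21%, 1.69 to 2.89, against 0.509% of the distant genome). Thbs1 had 9, Has2, the hyaluronan synthase, and Adamts5 had 8 each, Tnc (tenascin C) had 4, and Ltbp1, Postn (periostin), Col12a1 and Lama2 had 3 each. The others with the closest regions were Thbs2, Col5a1, Col1a2 and Vcan. The shares were 3.48% and 1.86% among distal intervals called in control only, so they were not particular to the regions in both lists. The gene lists were chosen with earlier results of these data known, so a share above the genome is a description and not a test. Regions near the same gene, such as those of Sox4 or Thbs1, were counted separately, and the Wilson intervals take no account of that grouping.

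**Figure D5:**
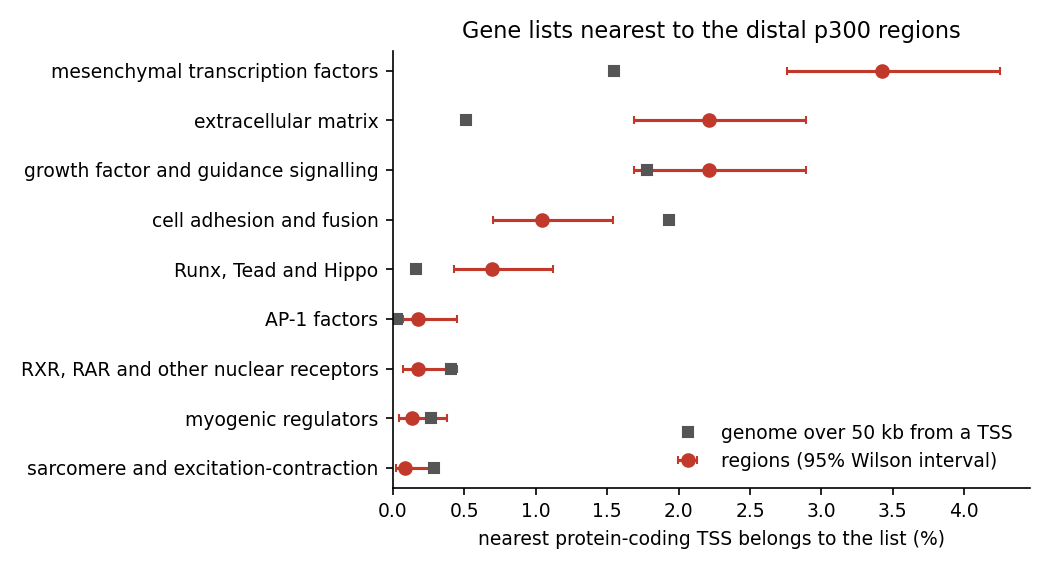
Percentage (horizontal axis) of the 2307 distal regions whose nearest protein-coding TSS belongs to each gene list (vertical axis), as circles with 95% Wilson intervals, and of the genome more than 50 kb from a TSS, as squares. Mesenchymal transcription factors (3.42% against 1.55%) and extracellular matrix genes (2.21% against 0.509%) stood above the genome, and cell adhesion and fusion genes below it (1.04% against 1.93%). The lists were chosen with earlier results of these data known, and the intervals treat regions near the same gene as separate.

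Some genes for Runx, Tead and AP-1 proteins and for the Hippo pathway were nearest to regions themselves. Of 16 genes for Runx, Tead and the Hippo pathway, 6 were nearest to 16 regions (0.694%, 0.427 to 1.12, against 0.162% of the distant genome and 0.709% of the distal intervals called in control only). Runx1 had 7, of which 3 lay downstream of its start and 4 upstream by up to 361 kb, with control intervals of 159 to 611 bp and bexarotene intervals of 158 to 383 bp. Ankrd1, a target of Yap, had 3 at 88.3 to 118 kb upstream, Wwtr1 (Taz) and Tead1 had 2 each, and Vgll2 and Runx2 had 1 each. Of 13 AP-1 genes, Jun alone was nearest to any (7.69% of the list, against 5.53% of all protein-coding genes). Its 4 regions made up 0.173% of the total (0.0674 to 0.445), against 0.0269% of the distant genome and 0.101% of the distal intervals called in control only. They lay 53.3 to 126 kb upstream, with control intervals of 209 to 311 bp and bexarotene intervals of 158 to 200 bp, and AP-1 letters were present in 2 of the 4 windows.

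Among 55 genes for growth factors and guidance signals, 23 were nearest to 51 regions (2.21%, against 1.78% of the distant genome, which lies within the Wilson interval of 1.69 to 2.89). Tgfb2 had 6, Efnb2 4, and Nrg1, Bmp4, Igfbp3, Sema3d, Pdgfc and Inhba 3 each. Kitl, Epha4, Bmp6 and Igf1 had fewer, with the closest region at 50.1, 54.1, 64.8 and 65.7 kb. The 31 genes for adhesion and fusion were nearest to 24 regions (1.04%, 0.7001 to 1.54, against 1.93% of the distant genome). Their share was 0.972% among distal intervals called in control only, so it was not particular to the regions in both lists. Lphn2 had 8, Ncam1 and Pcdh18 had 3 each, and Cdon, a cell-surface promoter of myogenesis, had 2.

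Genes of the lists for myogenic regulators, the sarcomere and RXR with other nuclear receptors were nearest to few regions, with Wilson intervals that included their share of the distant genome. Of 20 myogenic regulators, Tcf4 and Eya1 were nearest to 3 regions in all (0.130%, 0.0442 to 0.382, against 0.269% of the distant genome), and Myod1, Myf5 and Myog to none. Of 42 sarcomere and excitation-contraction genes, Dysf (dysferlin, which acts in membrane repair) alone was nearest to any, with 2 regions (0.0867%, 0.0238 to 0.316, against 0.284%). Of 30 nuclear receptor and coregulator genes, Rxra was nearest to 2 regions, 65.3 and 75.4 kb away, and Rarb and Rora to 1 each. These 4 regions made up 0.173% (0.0674 to 0.445), against 0.409% of the distant genome. The nuclear receptors Nr2f2, with 6 regions, and Nr2f1, with 1, are not among these 30 but in the mesenchymal list. The intervals of these 3 lists rest on 2 to 4 regions each.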

How the data were processed

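Reads were aligned to mm9 by the authors (Bowtie for p300, BWA-MEM for myogenin), Picard was used against duplicates, and HOMER called the peaks library by library. The deposited lists hold positions only, counted from a start of 0; positions are printed counted from 1. Of the 8 samples, 4 have a list used here, and the input and H3K27me3 libraries were not analysed here. The members, gene lists and motifs were chosen with earlier results of these data known.

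TSSs came from 51733 protein-coding transcripts of GENCODE vM1 (mm9), where the study used RefSeq, and sequences from the mm9 genome, which was given without repeat masking. Motifs were searched on both strands within 100 bp of the interval centre. Flanks were 200 bp windows 2 kb to either side that overlapped no p300 interval (4461). Shares carry 95% Wilson, differences Newcombe and medians exact order-statistic intervals. Genes were named where they were nearest to most regions (at least as many as the 12th gene) or, within a list, to at least 3 regions, with up to 4 others with the closest region; 1 gene that this names is not reported here. Regions were named by control length (10), by density of groups (8) and by the distance limit (3 on either side). Alternatives changed the overlap, distance, TSS catalog, window, centre, flanks and chaining. Python 3.11.15, numpy 2.4.6, pandas 2.3.3, scipy 1.17.1, pysam 0.24.0 and matplotlib 3.10.9 were used, and 8 of 8 steps on simulated data recovered their answers.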

Additional observations from a re-analysis of the deposited data

How the results depend on the processing

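No paired analysis was possible because each group is 1 library and the lists hold positions only. Of the alternative values, 141 kept their direction and their side of 0 or moved by less than their interval or, for counts, by less than 1.5 times. Of the rest, 19 moved further, in 3 the interval came to exclude 0, in 2 it came to include 0, and 1 reversed. Among the 141 were differences that changed sign within intervals that included 0. With 50 bp to each side, AP-1 against the nearer class went from -0.28 to 0.30 points. Tead against the regions with myogenin went from -1.99 to 0.82 points. The number of regions was 1482 with a reciprocal overlap of at least 50% and 1334 beyond 100 kb. With that overlap the AP-1 share was 36.7%, the median control length 305 bp, the median bexarotene length 225 bp and the length ratio 0.735. Among the 1323 regions longer than the smallest interval in both lists these medians were 415 and 255 bp and the ratio 0.674. Beyond 100 kb the median control length was 378 bp, the Runx difference from the regions with myogenin became -8.27 points (-14.0 to -2.59), and the CAGCTG difference from the control-only intervals became 2.29 points (-0.32 to 4.98). With 50 bp to each side the shares were 23.8% for AP-1, 23.0% for Runx, 13.2% for Tead, 13.6% for CAGCTG and 3.29% for CACCTG or CAGGTG. In whole intervals they were 24.0% for Tead, 25.2% for CAGCTG and 8.19% for CACCTG or CAGGTG. The whole-interval differences from the regions with myogenin, whose intervals were longer, became -7.97 points for Runx and -6.85 for Tead. Centred on the control interval, the Tead difference from the nearer class was 2.03 points (-0.27 to 4.33). Set against the motif letters in reverse order in the same windows, CACCTG or CAGGTG differed by 1.30 points (-0.08 to 2.69), where the flanks gave -4.42. Chaining over 0.25 of the distance left 283 groups. The cause of these shifts was not tested beyond what each setting changes by its construction. The alternative that leaves out windows rich in repeats was not run, since the genome file marks none. Without tag counts, the authors' threshold could not be changed and the depth of the libraries was unknown.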

Other observations

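The distance to protein-coding starts does not count microRNA genes. A named microRNA gene lay within 50 kb of 20 regions (0.867%, 95% Wilson interval 0.562 to 1.34), against 0.614% of the genome more than 50 kb from a TSS, which lies within that interval, and 1.21% of the distal intervals called in control only. Around the paired genes Mir199a-2 and Mir214, which lie in Dnm3 and are known for their expression in mesenchyme, 3 regions were found. That at chr1:164147593-164147802 was 0.247 kb from Mir199a-2 and measured 198 bp in control and 210 bp in bexarotene, that at chr1:164155704-164155861 was 2.175 kb from Mir214 and measured 458 and 158 bp, and that at chr1:164137494-164137651 measured 265 and 158 bp. The longest bexarotene interval of all, the 1026 bp interval whose central sequence is printed with an AP-1 motif alone, lay 25.7 kb from Mir29b-1 and 26.0 kb from Mir29a, microRNAs known to target collagen transcripts. On the X chromosome 1 of the 26 regions lay 11.3 kb from Mir221 and 10.7 kb from Mir222, and on chromosome 11 a region lay 23.8 kb from Mir21. These were picked from 24 named microRNA genes after the distances had been seen, and no microRNA was measured. Those not picked included Mir802, also with 3 regions (40.9 to 47.1 kb away), and Mir122a (41.1 kb), so the picked genes do not describe the whole set.

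The E-box cores differed from one another. Of the 10 possible cores, CAGCTG had the highest ratio to the flanks (2.87), followed by CAGATG or CATCTG (23.1% of windows against 15.4%, ratio 1.502). CACGTG was at the level of the flanks (1.86% in both), and CATATG was under it (3.77% against 6.84%, ratio 0.552), as was CACCTG or CAGGTG (0.605). The base next to the AP-1 letters also differed from the flanks: read on both strands, a T preceded the 7 letters in 7.99% of cases in the regions (95% Wilson interval 6.84 to 9.32, 926 sites) and in 21.3% in the flanks (17.0 to 26.3, 148 sites), whereas an A preceded them in 35.1% and 25.3%.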
